A study of Homo sapiens with 4 samples.

Results

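The 9 genes described here were ALPI, ALPL, ALPP and ALPPL2, which encode the alkaline phosphatases, and LPL, FOLR1, FBN2, TUSC3 and RNF182. They were taken by symbol from the 59885 genes of the authors' deposited table, and all 9 were found. They were chosen on these data, as abundant genes whose expression is usually restricted to tissues other than the exocrine pancreas, so their levels and fold changes are given as a description and support nothing by themselves. The study compared cells labelled PANC-1, a human line derived from a pancreatic ductal adenocarcinoma, carrying a CFL1 knockout, with control cells labelled as the same line. CFL1 encodes cofilin-1, which severs actin filaments. There were 2 control and 2 knockout libraries of total RNA, and the labels give no further treatment, clone, guide or control vector. The labels do not say whether the libraries of a group are separate cultures or clones; p-values therefore measure only how far these libraries differ, which may be technical variation.

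Alkaline phosphatases remove phosphate from extracellular substrates and are held on the cell surface by a glycosylphosphatidylinositol (GPI) anchor. ALPL is the tissue-nonspecific enzyme of bone, liver and kidney, ALPI is the intestinal enzyme of the enterocyte brush border, ALPP is the enzyme of the placental syncytiotrophoblast, and ALPPL2, named ALPG in current RefSeq, is a germ cell and placental enzyme very close to ALPP. The other members come from unrelated families: LPL is the lipase that releases fatty acids from circulating lipoproteins, FOLR1 is a GPI-anchored folate receptor, FBN2 is an extracellular matrix fibrillin, TUSC3 is a subunit of the oligosaccharyltransferase that attaches N-glycans to proteins, and RNF182 is a RING finger ubiquitin ligase.

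ALPP, ALPPL2 and ALPI lie next to each other on chromosome 2, and the 250 bases before the start of each gene show how alike the 3 loci are. The stretches are from RefSeq on GRCh38.p14, plus strand, 5′ to 3′, at chr2:232378501-232378750 for ALPP, chr2:232406594-232406843 for ALPPL2 and chr2:232455903-232456152 for ALPI. Capitals mark the longest run of letters that all 3 share, CCCTGATTTAAACCC.
ALPP: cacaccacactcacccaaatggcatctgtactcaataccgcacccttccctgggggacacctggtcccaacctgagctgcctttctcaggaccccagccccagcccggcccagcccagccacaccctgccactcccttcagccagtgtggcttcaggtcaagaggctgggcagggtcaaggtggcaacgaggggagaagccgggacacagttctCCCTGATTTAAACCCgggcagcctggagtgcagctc
ALPPL2: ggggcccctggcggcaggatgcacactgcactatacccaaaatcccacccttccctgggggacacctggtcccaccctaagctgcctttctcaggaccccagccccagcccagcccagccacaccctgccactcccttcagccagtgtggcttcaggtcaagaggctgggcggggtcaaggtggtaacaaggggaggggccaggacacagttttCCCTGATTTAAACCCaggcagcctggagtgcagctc
ALPI: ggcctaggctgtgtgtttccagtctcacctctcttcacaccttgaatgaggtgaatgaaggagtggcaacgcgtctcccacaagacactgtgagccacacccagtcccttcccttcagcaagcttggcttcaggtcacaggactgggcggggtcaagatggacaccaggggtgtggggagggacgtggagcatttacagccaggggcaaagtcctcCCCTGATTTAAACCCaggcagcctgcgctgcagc

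The shared run of 15 bases begins 36 bases before the start of ALPP, 36 before that of ALPPL2 and 34 before that of ALPI. Among 35116 promoter windows of the same length it was found in 3, which are these 3. Over the whole window ALPP and ALPPL2 were identical at 216 of 250 bases (86.4%), ALPI and ALPPL2 at 64.8%, and ALPI and ALPP at 63.2%. ALPL, which lies elsewhere in the genome, was identical to ALPI at 56.4%, to ALPPL2 at 54.4% and to ALPP at 52.8%. Of 4 short motifs searched on both strands, GGGCGG was present in the ALPI window, 106 bases before the start, and in the ALPPL2 window, 83 bases before it. TATAAA is in 10.7% of all windows, GGGCGG in 42.6%, CCAAT in 32.0% and TGANTCA in 6.57%, and the ALPP window held none of these. The transcripts are alike as well, which bears on how reads are assigned. Of the 50-base stretches of the ALPPL2 transcript, 716 of 2444 (29.3%) also occur in ALPP, whereas 1.52% of those of ALPI occur in ALPP and ALPL shares none with the other 3. RSEM divides reads that fit several genes, so the values of ALPP and ALPPL2 depend on that division.

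Without the 169 most abundant genes, whose reads were not recovered, the whole reads recovered from the deposited base means totalled 14215739 (control A), 14048435 (control B), 14555936 (knockout A) and 12277719 (knockout B). The letters only tell the libraries apart and cannot be tied to the labels' sample numbers. CFL1 was at 6276 normalized counts in control A and 13761 in B, and at 2285 in knockout A and 2487 in B, below both controls in both knockouts (log2 fold change -2.07, SE 0.454, adjusted p 0.00168 by DESeq2 in the authors' deposited table). The control B library differed widely from the other 3. Across 17116 genes its log2 values correlated with those of control A at a Pearson r of 0.71, while the lowest r among the other 3 libraries was 0.98; the points are genes, not replicates. For the 11225 genes at 100 or more normalized counts on average in control A and the knockouts, the median distance was 0.74 log2 between the controls, 0.20 between the knockouts and control A and 0.12 between the knockouts. Results on the members are therefore given with and without control B where values per library allow it.

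ALPI (ENSG00000163295.4_2), the intestinal enzyme, was at 6767 normalized counts in control A and 0 in B, and at 14483 in knockout A and 13349 in B. Both knockouts were above control A, by 2.14-fold and 1.97-fold, and control B had no read of this gene. A count of 0 in control B allows up to 3 reads, or 3.35 normalized counts, so the mean of the other 3 libraries was at least 3439-fold higher; such limits cover counting error only. ALPL (ENSG00000162551.13_3), the tissue-nonspecific enzyme, was at 2480 in control A and 0 in B, and at 3106 in knockout A and 2958 in B. It too was absent from the reads of control B alone, while the knockouts lay 1.25-fold and 1.19-fold above control A.

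ALPP (ENSG00000163283.6_2), the placental enzyme, was at 2050 normalized counts in control A and 24.6 in B, and at 949 in knockout A and 990 in B. Here the knockouts lay between the controls: control A was 2.11-fold above the mean of the knockouts, and control B, with 22 reads, was 54.1-fold below the mean of the other 3 libraries. ALPPL2 (ENSG00000163286.8_3), the germ cell enzyme, was at 51.8 in control A and 78.2 in B, and at 34.5 in knockout A and 31.3 in B. It was the only one of the 9 genes with its highest value in control B and the only one with both knockouts below both controls, and with 70 reads or fewer in every library it is not abundant, unlike the other 8. Since the division of reads between ALPP and ALPPL2 is an estimate, their sum was also taken, and it was at 2102 in control A and 103 in B, and at 984 in knockout A and 1021 in B, in the same order as ALPP. All 4 phosphatases together came to 11349 normalized counts in control A and 103 in B, and to 18573 in knockout A and 17329 in B.

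LPL (ENSG00000175445.14_3), the lipoprotein lipase, was at 7480 normalized counts in control A and 0 in B, and at 7581 in knockout A and 8253 in B. Control A and the knockouts were close, at ratios of 1.01 and 1.10, and control B had no read, at least 2317-fold below the mean of the other 3. FOLR1 (ENSG00000110195.12_2), the folate receptor, was at 5359 in control A and 0 in B, and at 8106 in knockout A and 8353 in B. The knockouts lay 1.51-fold and 1.56-fold above control A, and control B again had no read. FBN2 (ENSG00000138829.11_3), the fibrillin, was at 9700.0 in control A and 0 in B, and at 5991 in knockout A and 7285 in B. For this gene control A was the highest library, 1.46-fold above the mean of the knockouts, so that the knockouts fell between the controls as they did for ALPP.

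TUSC3 (ENSG00000104723.20_3), the glycosylation subunit, was at 1539 normalized counts in control A and 0 in B, and at 2056 in knockout A and 2207 in B. Both knockouts exceeded control A, by 1.34-fold and 1.43-fold, with no read in control B. RNF182 (ENSG00000180537.12_3), the ubiquitin ligase, was at 11448 in control A and 1663 in B, and at 12597 in knockout A and 13469 in B. It was the one abundant member with a sizeable level in control B, 7.52-fold below the mean of the other 3 libraries, and the knockouts lay 1.10-fold and 1.18-fold above control A. In bulk RNA such as this, fewer cells of a type and less RNA per cell cannot be told apart.

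**Figure D1:**
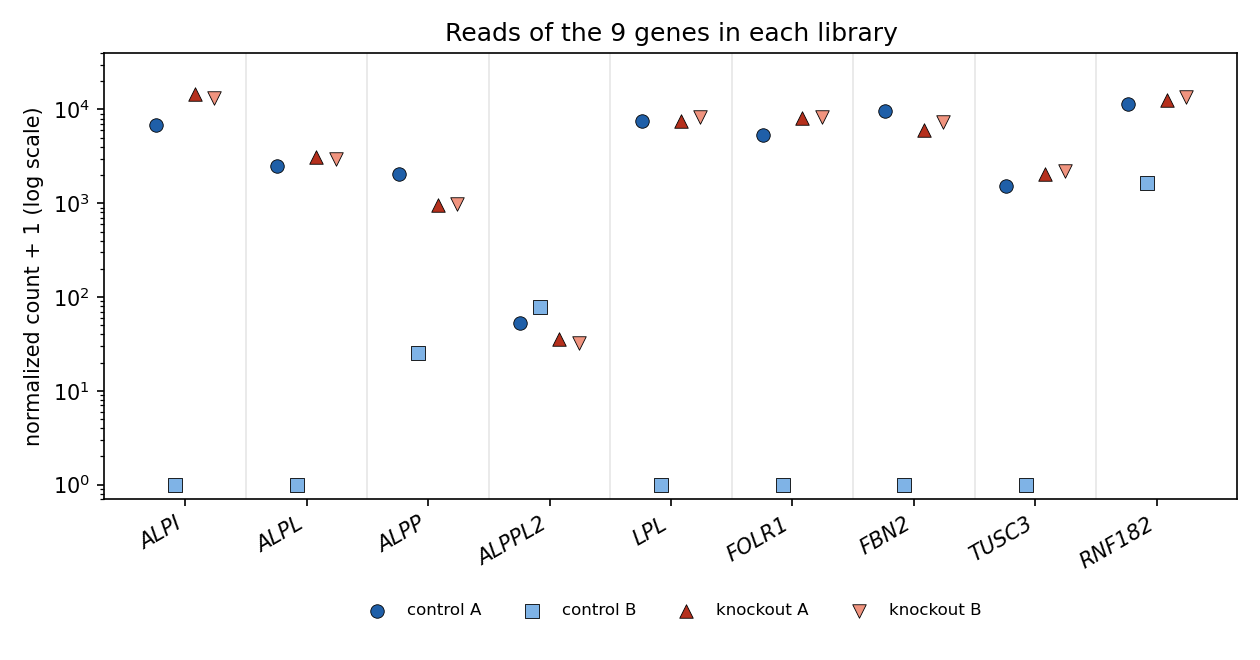
Normalized counts plus 1 (log axis) of the 9 genes in control A (circles), control B (squares), knockout A (upward triangles) and knockout B (downward triangles), 1 point per library. ALPI, ALPL, LPL, FOLR1, FBN2 and TUSC3 sit at 0 reads in control B and between 1539 and 14483 normalized counts in the other libraries.

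Since the members were chosen with these values in view, their counts are set beside those of all genes only as a description. Of 10809 genes at 100 or more normalized counts in each of the other 3 libraries, 122 (1.13%) had no read in control B, and 6 of the 8 members that reach that level did. A level at least 10-fold lower in control B than in each other library was found for 568 of the same genes (5.25%) and for 7 of the 8 members, ALPP being the seventh. RNF182 missed that limit, and ALPPL2 is below the level needed. Both knockouts were above both controls for 3933 of 16435 genes (23.9%) and for ALPI, ALPL, FOLR1, LPL, RNF182 and TUSC3. Both knockouts were below both controls for 3463 genes (21.1%) and for ALPPL2 alone among the 9. ALPP and FBN2 overlapped between the groups.

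Levels were divided by the length of the longest protein-coding transcript, which may not be the form expressed, so genes can be compared only roughly. Per kilobase of that transcript, FOLR1 was the most abundant member in control A and the knockouts. It was at 4027 normalized counts per kb in control A, 6090 in knockout A and 6276 in knockout B. In these libraries it ranked 49, 34 and 26 among 16661 genes with recovered reads. The 169 genes with the highest base means are not among them, so ranks over all genes may be further down. ALPI was at 2654, 5680 and 5235 per kb in the same libraries, below RNF182 in control A and above it in the knockouts, RNF182 being at 3089, 3399 and 3634. LPL followed at 1944, 1971 and 2145 per kb. ALPL, FBN2, ALPP and TUSC3 formed a lower tier, between 319 and 1200 per kb. Within it the order was not the same in every library: FBN2 was above ALPP and TUSC3 in control A, and ALPP was the lowest of the 4 in both knockouts but not in control A. ALPPL2 was between 12.5 and 20.8 per kb in these 3 libraries. In control B the order was different, with RNF182 at 449 per kb (rank 2715), ALPPL2 at 31.4, ALPP at 8.28 and the other 6 at 0.

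Of the genes tested by the authors, 93 of 16629 genes (0.559%) had an adjusted p under 0.05 by DESeq2 in the authors' deposited table, with 23 of these higher in the knockouts and 70 lower. None of the 9 members did, and none had an unadjusted p under 0.05. The member with the lowest adjusted p was ALPPL2 (log2 fold change -0.98, SE 0.563, adjusted p 0.457 by DESeq2 in the authors' deposited table). The deposited fold changes of the 6 genes with no read in control B were 2.04 for ALPI, 1.62 for FOLR1, 1.47 for TUSC3, 1.29 for ALPL, 1.08 for LPL and 0.45 for FBN2. Their standard errors in that table were between 3.54 and 3.89, against a median of 0.515 over all genes tested; 338 genes (2.03%) had a standard error above 3. RNF182, with reads in every library, had a deposited log2 fold change of 0.99 and an SE of 0.834. For ALPP the deposited value was -0.10 with an SE of 2.04, since the mean of the 2 controls is close to that of the knockouts although neither control is.

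limma on log2(normalized count + 1) of the recovered reads called 0 of 24787 genes (0%), with 490 genes at an unadjusted p under 0.05 and, with voom in its place, 0 called and 427 at that p. This measure averages logs, so the genes absent from control B show larger differences on it: 7.40 for ALPI, 6.81 for FOLR1, 6.52 for LPL, 6.07 for FBN2, 5.93 for ALPL and 5.76 for TUSC3. ALPP was at 2.08 on this scale, RNF182 at 1.58 and ALPPL2 at -0.93. Without control B these log2 differences became 1.04 for ALPI, 0.62 for FOLR1, 0.47 for TUSC3, 0.29 for ALPL, 0.19 for RNF182, 0.08 for LPL, -0.55 for FBN2, -0.64 for ALPPL2 and -1.08 for ALPP, so that ALPP and FBN2 changed direction. limma then called 0 of 23696 genes (0%), with 3546 at an unadjusted p under 0.05; ALPI and ALPP had an adjusted p of 0.117 by limma. Without control A, limma called 8325 of 24974 genes (33.3%), among them every member but ALPPL2 (adjusted p 0.0581 by limma), with control B as the lone control assumed to vary like the knockouts. For 8 of the 9 members the call thus depended on which control was kept.

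**Figure D2:**
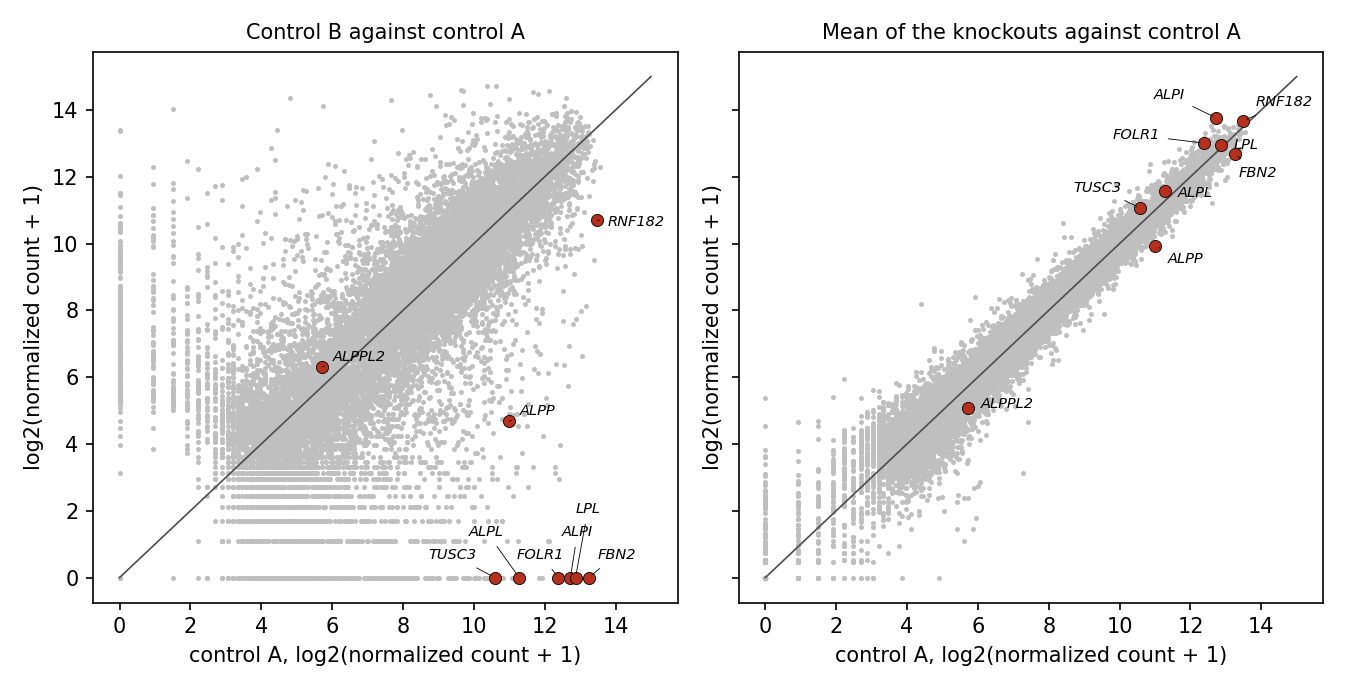
Each point is a gene, as log2(normalized count + 1) in control A (horizontal) and, vertically, in control B (left) or as the mean of the knockouts (right); the line marks equality and the 9 members are named. On the left 6 members lie at 0 in control B, and on the right ALPI and ALPP lie farthest from the line among the named genes.

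Against control A alone, both knockouts were at least 1.5-fold higher for 410 of 11225 genes (3.65%) and for ALPI and FOLR1 among the 8 members at that level. Both were at least 1.5-fold lower for 196 genes (1.75%) and for ALPP. With a single control library this comparison has no replicate check on the control side. The difference of ALPI, 1.04 on the log2 scale, was larger in size than that of 99.0% of these genes, and that of ALPP, -1.08, larger than that of 99.2%. By the same measure FOLR1 exceeded 92.8% of genes, FBN2 90.2%, TUSC3 85.5%, ALPL 66.5%, RNF182 47.7% and LPL 22.6%. The knockouts differed from each other by 0.28 log2 for FBN2, which is more than for 86.8% of genes, and by 0.14 or less in size for the other 8 members. The intestinal and placental phosphatases thus lay on opposite sides of control A. For both, the knockouts were farther from control A than from each other, as they were for every other member but LPL. Over the 11225 genes the medians of these distances were 0.20 and 0.12 log2.

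**Figure D3:**
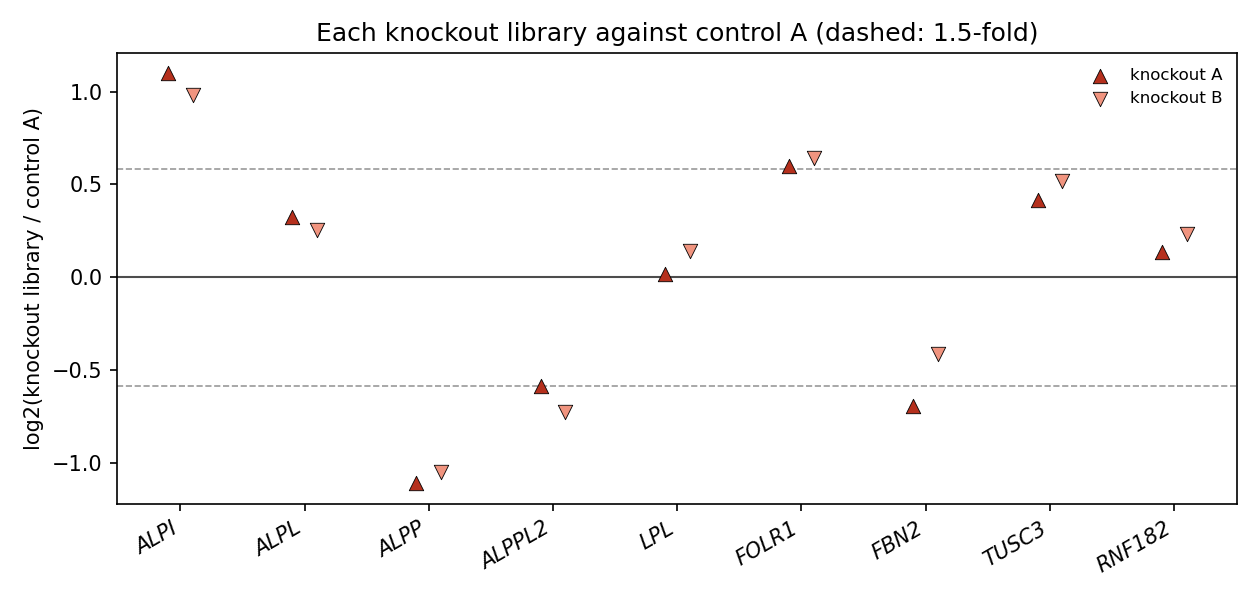
Log2 ratio of knockout A (upward triangles) and knockout B (downward triangles) to control A for the 9 genes; dashed lines mark 1.5-fold and the solid line equality. ALPI and FOLR1 lie above the upper line in both knockouts, ALPP lies below the lower line in both, and of ALPPL2, a gene with 57 reads or fewer in these libraries, the knockout A point lies on that line and the knockout B point, at a ratio of 0.604, below it.

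Likeness in profile over the 4 libraries was taken as the Euclidean distance between centred log2(normalized count + 1) values. The pool was 10618 protein-coding genes with a mean normalized count of at least 100, members included, but members were not ranked. The genes most like LPL were AKR1C3 at 0.753, HIST1H3F at 1.32 and SMOC1 at 1.32. The 3 genes most like FOLR1 were the same, AKR1C3 at 0.733, SMOC1 at 1.04 and HIST1H3F at 1.08. AKR1C3, an aldo-keto reductase acting on steroids, was at 3912 normalized counts in control A and 0 in B, and at 4312 in knockout A and 4607 in B. Among the members LPL and FOLR1 were nearest to each other, at 0.455, followed by ALPL and TUSC3 at 0.528 and LPL and FBN2 at 0.532. ALPP was far from ALPI, at 6.98, and nearest to RNF182, at 2.56. The genes most like ALPP were CYFIP2 at 0.311, VWA5A at 0.311 and WNT5A at 0.316. WNT5A, a secreted WNT ligand, was at 2192 in control A and 27.9 in B, and at 1155 in knockout A and 1417 in B, with the knockouts between the controls as for ALPP. These distances rest on 4 libraries, and control B is the farthest from the other 3 for each of the genes named here. For a gene at 0 in control B, the drop to the pseudocount depends on its level elsewhere, so its distances depend on level too. ALPI and ALPL, both at 0 in control B and higher in the knockouts than in control A, were thus 1.79 apart.

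The genes that work with the members were taken in 6 lists of 100 genes, of which 80 had an adjusted p. None of the 80 passed the DESeq2 threshold in the authors' deposited table in either direction, and 10 had an unadjusted p under 0.05. The share of all tested genes at that p is not given here, so this and later counts of listed genes at an unadjusted p have no reference. The median deposited log2 fold change over all tested genes was -0.03. Against control A alone, the list medians of the log2 difference were between -0.09 (oligosaccharyltransferase) and 0.35 (lipoprotein lipase), and that of all genes was 0.01. Against control B alone they were between -0.24 (fibrillin microfibril) and 1.05 (phosphate handling), with 0.02 for all genes. Some medians thus depended on the control. The phosphate handling median was -0.04 with control A but 1.05 with control B, and the lipoprotein lipase median 0.35 but -0.23. The fibrillin median was 0.16 with control A but -0.24 with control B, and the folate median 0.14 but 0.71. For the genes that build and attach the GPI anchor, on which the phosphatases and FOLR1 depend, 0 of 27 tested passed, and their median was 0.10. The most abundant were PGAP1, which remodels the anchor (2123 and 943 normalized counts in controls A and B, 2392 and 2548 in knockouts A and B), and PIGT, a subunit of the transamidase that attaches it (1515, 1018, 1848 and 1807 in the same order). The summed level of the list was between 15582 and 17232 in the 4 libraries, but its genes went both ways: of the 27, 10 had their highest and 13 their lowest value in control B. For phosphate and pyrophosphate handling, 0 of 9 passed, with a median of 0.50. SLC20A1, a sodium-phosphate transporter, was at 3205 in control A and 7908 in B, and at 2516 in knockout A and 2745 in B, the reverse order of ALPI. PPA1, a cytosolic pyrophosphatase, was at 7141, 3451, 7541 and 7610.

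For lipoprotein lipase maturation, control and related lipases 0 of 12 tested genes passed, with a median of 0.14. SEL1L, which the lipase needs to leave the endoplasmic reticulum, was at 2555 normalized counts in control A and 4579 in B, and at 2317 in knockout A and 2732 in B. LRP1, a lipoprotein receptor, was too abundant for values per library (base mean 12774, deposited log2 fold change 0.90). For folate receptors, carriers and enzymes 0 of 9 passed, and none had an unadjusted p under 0.05, with a median of 0.27. MTR, methionine synthase, was at 2977 in control A and 2029 in B, and at 3152 in knockout A and 3398 in B, lowest in control B though far from absent there.

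For the fibrillin microfibril genes 0 of 12 tested passed, with a median of -0.01. FBN1, the other abundant fibrillin, was at 4255 normalized counts in control A and 34.6 in B, and at 4722 in knockout A and 4762 in B, so both fibrillins were high in the same 3 libraries, FBN2 with its highest value in control A and FBN1 with its lowest of the 3 there. FBLN1, a fibulin of the matrix, was at 3519, 1153, 4025 and 4085. For the oligosaccharyltransferase 0 of 11 passed, with a median of -0.07. STT3B, the catalytic subunit of the complex that holds TUSC3, was at 7640 in control A and 7237 in B, and at 6638 in knockout A and 7361 in B, and RPN2 at 6435, 6781, 6510 and 6784. MAGT1, the paralog that can stand in the place of TUSC3 and is named here after its values were seen, was at 2605 in control A and 3095 in B, and at 3112 in knockout A and 3103 in B. Of this pair, control B thus had reads of MAGT1 and none of TUSC3.

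The pancreatic label was set against 12 ductal epithelial markers, of which all had reads and 0 of 10 tested passed the DESeq2 threshold in the authors' deposited table, 4 having an unadjusted p under 0.05. The most abundant, KRT8, was above the limit for values per library (base mean 14817, deposited log2 fold change -1.41). Over the 10 markers with values per library, the summed level was 4354 normalized counts in control A and 6910 in B, and 4945 in knockout A and 4647 in B. The markers behind those sums differed: of the 8 tested among them, 5 had their highest value in control B and 3 their lowest. KRT7 was at 3551 in control A and 108 in B, and at 4000.4 in knockout A and 3683 in B, whereas KRT19 was at 1.82, 2481, 0 and 0 and SOX9 at 63.6, 3513, 156 and 183. PDX1 was at 2.24 or less in every library. The 3 libraries that hold the members thus had a ductal keratin, KRT7, and at most 1.82 normalized counts of another, KRT19, while control B had 2481 of KRT19 and 108 of KRT7; KRT7, KRT19, SOX9 and PDX1 were picked after their values were seen.

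**Figure D4:**
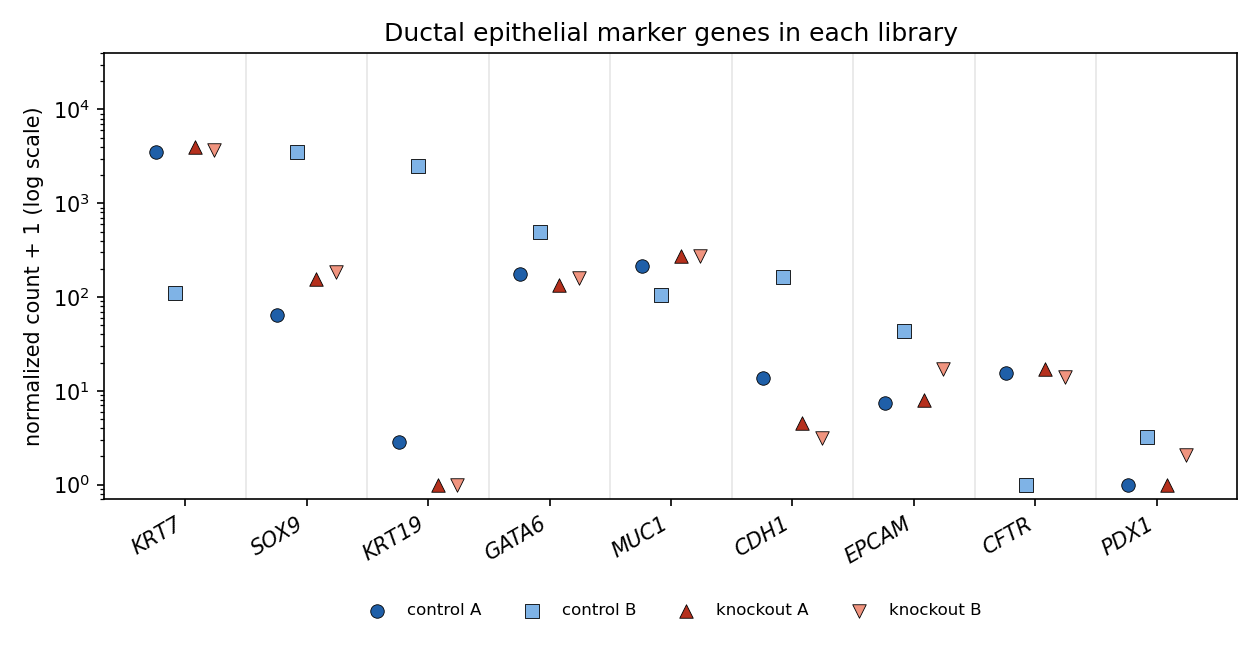
Normalized counts plus 1 (log axis) of 9 ductal markers, with control A as circles, control B as squares, knockout A as upward and knockout B as downward triangles. KRT19 and SOX9 are high in control B, and KRT7 in the other 3 libraries.

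Markers of the tissues in which the members are best known were also counted; none passed the DESeq2 threshold in the authors' deposited table, and 0 to 2 of each class had an unadjusted p under 0.05. Within a class, markers often went opposite ways in control B. For the trophoblast, home of ALPP, 10 of 14 markers had reads, and they summed to 3363 normalized counts in control A and 1159 in B, and to 4235 in knockout A and 4499 in B. The most abundant, TFAP2A, was at 1899 in control A and 428 in B, and at 1972 in knockout A and 2041 in B. Of the 7 tested, 4 had their lowest value in control B and 2 their highest. Named after their values were seen, CGA, the common subunit of the glycoprotein hormones, was at 699.8, 0, 1633 and 1815, whereas GATA3 was at 0, 111, 2.66 and 7.55. For the enterocyte, home of ALPI, 6 of 8 had reads. The sums of 523 in control A and 7369 in B, and of 437 in knockout A and 451 in B were nearly all ANPEP (449, 7316, 350 and 386), an aminopeptidase. The order of ANPEP is the reverse of that of ALPI. Of the 2 tested enterocyte markers, however, 1 had its highest and 1 its lowest value in control B. The latter, VIL1, named after its values were seen, was at 64.5, 32.4, 76.1 and 57.2. For germ cells, home of ALPPL2, the sums were 217, 1516, 344 and 335, most of it in control B being LIN28B (0, 1308, 0 and 1.08), which, like ALPPL2, had its highest value there. Yet 3 of the 5 tested germ cell markers had their lowest value in control B, such as PRDM1 (135, 26.8, 221 and 254.5), named after its values were seen. For adipocytes, in which LPL is abundant, all 6 markers summed to 59.1 or less in every library, and CEBPA led them at 51.8 in control A and 4.47 in B, and at 21.3 in knockout A and 19.4 in B. For osteoblasts, in which ALPL is abundant, the sums were 41.8, 428, 53.1 and 61.5. Most of this in control B was RUNX2 (28.2, 425, 34.5 and 39.9), highest in the library without a read of ALPL. Yet 3 of the 5 osteoblast markers with reads, SP7, BGLAP and DMP1, had no read in control B, like ALPL. DMP1 had none in control A either. SPP1 was highest in control B, at 3.35. These markers other than RUNX2, named after their values were seen, were low, with base means of 6.88 or less. For Müllerian and mesothelial epithelium, in which FOLR1 is known, the sums were 1151, 165, 1281 and 1185, led by MSLN (513, 5.59, 730 and 705). FOLR1 was at 0 where MSLN was at its lowest. Of the 5 tested markers of this class, 4 had their lowest value in control B and 1 its highest. The part that a difference in cell identity between control B and the other libraries has in any of these values was not tested.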

How the data were processed

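Total RNA of 2 control and 2 CFL1 knockout libraries labelled PANC-1 was sequenced, with an RNA integrity number of at least 7 per the labels' protocols. Per the submitters' processing notes, cutadapt, FastQC, STAR, RSEM and the build hg19 were used, in versions not given in the sources used here. The single table is the authors' DESeq2 result table, by its column names. Its base mean is a signal deposited by the authors, the mean of the 4 libraries' counts divided by size factors. Fold changes and standard errors are on the log2 scale, as deposited by the authors without shrinkage. The Wald score is the authors' log2 fold change over its standard error. The p-value columns, unadjusted and Benjamini-Hochberg adjusted, are the authors' and were taken as they stand. A gene was called at an adjusted p under 0.05.

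The members and all gene lists (6 pathway lists, 13 marker classes) were chosen with earlier results of these data known. Named genes were the members, CFL1, the 2 most abundant genes of each pathway list, the most abundant marker of each class and the 3 genes most like LPL, FOLR1 and ALPP; others are said to have been picked after their values were seen. For 2 genes of these lists, values are not reported here, though they remain in the counts, medians and sums.

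Each base mean, printed to 15 digits, is a sum of whole reads times a step per library. First values of the 4 steps come from genes with a single read. The steps were then refined by least squares in rounds, the last on 400 genes with recovered reads. Of 30831 genes with a base mean above 0, the 169 at 10000 or more were given no values per library; whole reads were recovered for 30595 of the others (99.8%). The deposited fold change and its standard error were used to choose among the sets of reads that fit a base mean. At base means of at least 10, the reads gave back the deposited fold change to within 0.001 log2 for 16863 of 17116 genes. Since reads were chosen by that limit, this is no independent check of the recovery. Of base means shifted on purpose, 0 of 150 in each of 3 ranges from 10 to 3000, 6 of 150 from 3000 to 7000 (the range of LPL, FOLR1 and FBN2) and 18 of 145 from 7000 to 10000 (that of ALPI and RNF182) also gave a solution, none with a library at 0. Normalized counts are reads times their library's step, times 4, so they keep the authors' size factors. They are rounded RSEM estimates. The table has 0 columns of other samples.

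Genes with a mean of at least 1 were fitted with limma 3.58.1 (R 4.3.3) and a trended prior, on log2(normalized count + 1), a scale that makes changes of low genes look smaller. When tested on simulated data of 22996 genes, it called 84 of 100 2-fold changes and 100 of 100 4-fold changes, and 6 unchanged genes; no simulated library stood apart as control B does. Alternatives were another pseudocount, other filters, voom, upper quartile scaling, a stricter threshold and leaving out each library. Transcript lengths and 50-base stretches are from GENCODE release 29, which may not be the release the authors used, and promoters from RefSeq on GRCh38.p14, matched for ALPI, ALPL, ALPP, ALPPL2, FBN2 and RNF182; no coordinates were converted. Other tools were Python 3.11.15, pandas 2.3.3, numpy 2.4.6, scipy 1.17.1 and matplotlib 3.10.9.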

Additional observations from a re-analysis of the deposited data

How the results depend on the processing

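No paired analysis was possible because the deposited table has no column for single libraries and the recovered libraries cannot be tied to the replicate numbers in the labels. Leaving out each library in turn gave between 0 and 8325 genes called by limma. The 8325 came without control A, while leaving out control B, or either of the knockouts, gave none, and 3546 (control B), 37 (knockout A) and 26 (knockout B) genes had an unadjusted p under 0.05. With all libraries, limma called 0 genes under each other setting, with 261 to 683 genes at an unadjusted p under 0.05. The authors' calls numbered 93 as deposited, 78 with p-values adjusted over all genes, 91 and 77 at base means of at least 10 and 100, and 62 at an adjusted p under 0.01; pathway genes called were 0 in each. With a pseudocount of 0.1 the log2 differences of genes absent from control B were larger, such as 9.06 for ALPI and 8.18 for LPL, so these sizes depend on the pseudocount. For ALPP alone the difference was 2.08, and 1.10 for the sum of ALPP and ALPPL2. No member's difference moved by more than the spread within its group. With 2 libraries a group, leaving a library out cannot move the difference by more than that spread, so this is no check of stability. For the other settings the spread is wide because the controls lie far apart, so there too it says little. Depth limits ALPPL2, which has 29 to 70 reads in a library, and the zeros of control B.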

Other observations

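The marker classes not described so far were counted in the same way, and none had a gene past the DESeq2 threshold in the authors' deposited table, with at most 1 gene of a class at an unadjusted p under 0.05. For neurons, in which RNF182 is known, 6 of 7 markers had reads and summed to 225 normalized counts in control A and 1545 in B, and to 244 in knockout A and 255 in B. SYT1, a synaptic vesicle protein, led them at 16.4, 1282, 6.20 and 8.63 in the same order, whereas the next most abundant, SNAP25, was at 135, 3.35, 174 and 170. Of the 4 tested neuron markers, 3 had their highest value in control B and 1 its lowest. SNAP25 was chosen after its values were seen, as was PDGFRB. For stromal cells, which make fibrillins, the sums were 942, 1922, 1232 and 1111, led by COL1A1 at 354, 1574, 687 and 556, while PDGFRB was at 513, 6.71, 439 and 451, near absent from control B. For leukocytes and endothelium, which include macrophages that make LPL, the sums were 59.1, 1264, 35.4 and 42.1, nearly all of it in control B being CD68 at 1217. Hepatocyte markers summed to 62.6 or less in every library, with SERPINA1 at 61.5 in control B and 0 in the other 3. Pancreatic acinar markers had reads for 2 of 10 and summed to 9.09 or less in every library, and endocrine markers to between 30.2 and 209, PAX6 having the highest mean of them at 96.3, 1.12, 104 and 124.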
